A study of Mus musculus with 15 samples.

Results

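Estrogen, progesterone and prolactin act on the mammary gland through the receptors encoded by Esr1, Esr2, Pgr and Prlr, and a further set of genes is switched on or off by these hormones in mammary epithelium. Of those, the transcriptional coregulator gene Cited1, the RANK ligand gene Tnfsf11 and the growth regulator gene Greb1 were followed here together with the 4 receptor genes. The 7 genes were picked by symbol, as receptors and hormone-regulated genes of mammary epithelium, out of 51826 genes quantified in every library. RNA sequencing was available for 15 libraries from 13 female mice in 4 groups. The control glands came from 4 disease-free mice carrying MMTV-Cre alone. The tumors labelled as TRIM24 overexpressing, called Trim24COE, came from mice carrying MMTV-Cre and a single-copy Flag-tagged mouse Trim24 transgene behind a floxed stop cassette and a ubiquitin promoter, and were classed by the labels as metaplastic carcinosarcoma, a tumor with epithelial and mesenchymal components (3 mice), or as carcinoma (3 mice). The 3 non-TRIM24 tumors arose spontaneously in mice whose genotype the labels give as unknown. The labels give the strain as FVB, and the series description gives glands and Trim24COE tumors a mixed FVB/129 background. The MMTV promoter drives Cre mainly in mammary epithelium, and the control glands share this Cre but not the transgene. Ages are not in the sample labels, differ among the tumor mice in the study's records and were not used here. The pathologists' readings listed with the study differ for tumors 89, 567 and 3956, for which the class of the labels was kept. The first-listed pathologist read 89 and 3956 as carcinosarcoma. The study also lists a call based on RNA-Seq for every sequenced Trim24COE tumor except 3956. Contrasts between the classes may therefore not be independent of these values.

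In the epithelium of the virgin gland, estrogen receptor alpha sits in a subset of luminal cells, where it induces the progesterone receptor. Estrogen acts on neighboring cells through the EGF-family ligand amphiregulin. Progesterone acts largely through paracrine signals from the receptor-positive cells, chiefly RANK ligand and Wnt4. Prolactin binds its receptor, a cytokine receptor that uses the kinase Jak2 to activate Stat5, and with the transcription factor Elf5 this drives the alveolar cells that make milk proteins. Trim24 itself is a known coregulator of nuclear receptors.

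Values were TPM, a transcript abundance scaled by transcript length and library that sums to 1000000 in each library, and the TPM tables give no read numbers from which a counting error could be computed here. Libraries held between 21060 and 34209 genes above 0. The Trim24 message was 10.60 to 14.54 TPM in the metaplastic tumors and 13.91 to 24.08 TPM in the carcinomas, against 14.54 to 22.41 TPM in the glands. In these TPM values it was therefore not higher in the tumors than in the glands (log2 fold change -0.24, SE 0.26, limma adjusted p = 0.557). By qRT-PCR, the study reports higher Trim24 message in Trim24COE tumors than in Cre-only glands, and describes this as predicted by its RNA-seq. By immunohistochemistry it reports overexpressed FLAG and TRIM24 protein. The difference between these reports and the TPM values was not tested. Trim24COE is used below as the name of the label only. Glands 133 and 392 held 1717.89 and 1945.55 TPM of the adipocyte gene Adipoq, against 10.15 and 10.75 TPM in glands 417_3 and 517_3, and the non-TRIM24 tumors FVB001 and FVB002 held 4315.44 and 1524.71 TPM. All 7 luminal epithelial markers, the keratins Krt8 and Krt18 among them, were present in every group, and their summed TPM spanned 871 to 4759 in glands, 298 to 1412 in metaplastic tumors, 2595 to 6160 in carcinomas and 539 to 5223 in non-TRIM24 tumors. The non-TRIM24 tumors were sequenced in a second batch, together with repeat libraries of gland 133 and carcinoma 3956, so that batch and tumor type overlap. Nothing in the labels states how the mice were related, and p-values here measure the spread between these mice.

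Of the 7 genes, Esr1, Pgr, Prlr and Cited1 were lower in all 6 Trim24COE tumors than in all 4 glands. Their promoter windows, taken from RefSeq on GRCm38.p6 from 250 bases before to 50 bases after the annotated start and written 5′ to 3′ along the gene, are shown because these are the genes that moved together. Capitals mark an estrogen receptor half-site, GGTCA, or its reverse complement TGACC. The windows are chr10:4611739-4612038 on the plus strand for Esr1, chr9:8899583-8899882 on the plus strand for Pgr, chr15:10176988-10177287 on the plus strand for Prlr and chrX:102252132-102252431 on the minus strand for Cited1.
Esr1: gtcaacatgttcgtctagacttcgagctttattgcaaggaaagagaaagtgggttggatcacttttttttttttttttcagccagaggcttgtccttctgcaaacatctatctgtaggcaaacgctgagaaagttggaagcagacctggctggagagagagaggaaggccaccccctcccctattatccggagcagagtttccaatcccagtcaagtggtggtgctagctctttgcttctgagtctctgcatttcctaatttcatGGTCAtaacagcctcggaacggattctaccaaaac
Pgr: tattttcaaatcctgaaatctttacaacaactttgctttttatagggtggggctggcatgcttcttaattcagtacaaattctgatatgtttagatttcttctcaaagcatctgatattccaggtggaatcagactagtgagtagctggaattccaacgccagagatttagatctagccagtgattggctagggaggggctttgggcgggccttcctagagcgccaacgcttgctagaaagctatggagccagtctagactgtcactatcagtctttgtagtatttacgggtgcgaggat
Prlr: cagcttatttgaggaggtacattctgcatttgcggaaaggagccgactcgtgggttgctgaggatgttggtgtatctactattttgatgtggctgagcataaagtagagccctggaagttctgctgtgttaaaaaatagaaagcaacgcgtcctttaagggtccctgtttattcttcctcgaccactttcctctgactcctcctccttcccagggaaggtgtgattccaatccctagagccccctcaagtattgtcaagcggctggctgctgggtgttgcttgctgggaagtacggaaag
Cited1: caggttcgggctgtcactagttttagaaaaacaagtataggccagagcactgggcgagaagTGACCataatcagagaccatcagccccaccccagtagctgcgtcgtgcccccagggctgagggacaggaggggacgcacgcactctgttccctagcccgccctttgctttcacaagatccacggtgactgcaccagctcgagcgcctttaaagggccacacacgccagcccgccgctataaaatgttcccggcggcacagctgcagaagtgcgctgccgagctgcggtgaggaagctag
The Esr1 and Cited1 windows each held 1 half-site, at bases 266 to 270 and 62 to 66 of the window, and those of Pgr and Prlr held none. A half-site occurred on either strand in 40.5% of the 32851 windows of this length, so its presence was common. The full palindrome GGTCANNNTGACC, which contains the half-site, occurred in 0.07% of windows, the progesterone receptor half-site AGAACA in 19% and the Stat5 site TTCNNNGAA in 8.3%, each on either strand, and none of the 7 genes' windows held any of these. RefSeq lists 2 windows for Esr1, 3 for Prlr and 3 for Cited1, and the one nearest to the gene start in the GENCODE annotation was used, which for Esr1 lay 396 bases away. The matches are letters in a 300-base window, and no binding was measured.

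Esr1 (ENSMUSG00000019768.16, chromosome 10, 4611593 to 5005614, GRCm38) encodes estrogen receptor alpha, the ligand-activated transcription factor that mediates most estrogen action in the gland. Its level in the glands was even, at 9.63 TPM in gland 133, 9.68 in 392, 11.64 in 417_3 and 8.02 in 517_3. The metaplastic tumors 64, 567 and 897 had 1.29, 1.54 and 1.00 TPM, and the carcinomas 89, 273_5 and 3956 had 1.83, 0.71 and 0.84 TPM. Every Trim24COE tumor lay below every gland, with no overlap. Gland and tumor means were 9.74 ± 1.48 TPM (SD, n = 4) and 1.20 ± 0.431 TPM (SD, n = 6), an 8.11-fold drop, and the log2 fold change on log2(TPM + 1) was -2.30 (SE 0.23, 95% interval -2.81 to -1.78, limma adjusted p = 0.000298). Since these are bulk tissues, fewer cells carrying the message and less message per cell cannot be told apart. The non-TRIM24 tumors were spread widely, at 1.3 TPM in 219, 3.47 in FVB002 and 7.67 in FVB001. The last value lay just under the lowest first gland library and above the repeat library of gland 133 (7.48 TPM).

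Pgr (ENSMUSG00000031870.16, chromosome 9, 8899833 to 8968611) encodes the progesterone receptor and is itself a classic estrogen-induced gene. The glands had 3.18, 2.71, 12.28 and 5.61 TPM in the order 133, 392, 417_3 and 517_3. Metaplastic tumors 64, 567 and 897 had 0.17, 0.61 and 0.30 TPM, and carcinomas 89, 273_5 and 3956 had 0.42, 0.12 and 0.05 TPM. No Trim24COE tumor reached 1 TPM and no first gland library fell under 2 TPM (the repeat of gland 133 gave 1.83 TPM), so the groups did not overlap, although glands differed more among themselves than for Esr1. Glands averaged 5.95 ± 4.41 TPM (SD, n = 4) and the 6 tumors 0.278 ± 0.210 TPM (SD), 21.4-fold less. The log2 fold change of -2.26 (SE 0.34, 95% interval -3.02 to -1.51, limma adjusted p = 0.00192) understates this, because 1 TPM was added to every value. The non-TRIM24 tumors had 0.06, 0.08 and 0.16 TPM in 219, FVB001 and FVB002, inside the range of the Trim24COE tumors.

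Prlr (ENSMUSG00000005268.20, chromosome 15, 10177238 to 10349180) encodes the prolactin receptor. It varied between the glands, with 19.41 TPM in 133, 50.30 in 392, 84.40 in 417_3 and 45.49 in 517_3. All 3 metaplastic tumors were near the bottom of the range, with 0.86 TPM in 64, 1.90 in 567 and 0.40 in 897. The carcinomas were split, with 5.68 TPM in 89 and 10.09 in 273_5 but 0.15 in 3956, and the repeat library of 3956 gave 0.09 TPM. Even the highest carcinoma lay under the lowest gland. Glands averaged 49.9 ± 26.7 TPM (SD, n = 4) and the 6 tumors 3.18 ± 3.95 TPM (SD), 15.7-fold less, with a log2 fold change of -3.94 (SE 0.66, 95% interval -5.38 to -2.50, limma adjusted p = 0.00304). The non-TRIM24 tumors had 4.11, 3.07 and 6.36 TPM in 219, FVB001 and FVB002. The coding gene Gm21973 overlaps Prlr on the same strand and was listed at 0 TPM in every library.

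Esr2 (ENSMUSG00000021055.14, chromosome 12, 76120419 to 76177259, minus strand) encodes estrogen receptor beta, which is scarce in mouse mammary epithelium. No library exceeded 0.19 TPM. Trim24COE tumors ranged from 0.01 to 0.13 TPM with a median of 0.055, glands from 0.02 to 0.19 TPM, and non-TRIM24 tumors from 0.00 to 0.03 TPM. Esr2 did not pass the filter on low values in any comparison, and an exact permutation test of tumors against glands gave p = 0.776. The processed pseudogene Gm7862 lies inside Esr2 on the same strand and reached 80.9 TPM in a Trim24COE tumor, so reads shared with it could move values this low.

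Cited1 (ENSMUSG00000051159.16, X chromosome, 102247381 to 102252181, minus strand) encodes a CBP/p300-binding coregulator that, in the gland, is found in estrogen receptor-positive luminal cells and is needed for part of the estrogen response. It was the most abundant of the 7 genes in the glands, with 47.88 TPM in 133, 154.40 in 392, 195.19 in 417_3 and 233.48 in 517_3. Metaplastic tumors 64, 567 and 897 had 9.40, 6.89 and 1.02 TPM, and carcinomas 89, 273_5 and 3956 had 3.94, 4.95 and 1.86 TPM. The lowest gland stood well above the highest tumor of either class. Glands averaged 158 ± 80.0 TPM (SD, n = 4) and the 6 tumors 4.68 ± 3.13 TPM (SD), 33.7-fold less, and the log2 fold change was -4.80 (SE 0.54, 95% interval -5.98 to -3.62, limma adjusted p = 0.000448). The non-TRIM24 tumors had 11.64, 2.51 and 5.80 TPM in 219, FVB001 and FVB002, also all below the glands.

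Tnfsf11 (ENSMUSG00000022015.8, chromosome 14, 78277445 to 78308043, minus strand) encodes RANK ligand, the paracrine signal that progesterone induces, and it did not follow the receptors. The glands had 3.72 TPM in 133, 11.05 in 392, 2.76 in 417_3 and 1.97 in 517_3. The metaplastic tumors had 9.39 TPM in 64, 3.60 in 567 and 5.41 in 897, and the carcinomas had 3.06 TPM in 89, 1.74 in 273_5 and 2.22 in 3956. Tumors and glands overlapped, and the log2 fold change of -0.09 (SE 0.46, 95% interval -1.11 to 0.93, limma adjusted p = 0.917) changed sign when gland 392, carcinoma 273_5 or carcinoma 3956 was left out (0.33, 0.07 and 0.02). The interval allows a change of either sign. In the non-TRIM24 tumors Tnfsf11 was at 0.46, 0.02 and 0.28 TPM in 219, FVB001 and FVB002, below every other first library.

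Greb1 (ENSMUSG00000036523.16, chromosome 12, 16670615 to 16800886, minus strand) encodes a cofactor of the estrogen receptor and is an early estrogen-induced gene in human breast cancer cells. In these mouse tissues it was scarce. The glands had 0.44, 0.53, 0.20 and 0.11 TPM in the order 133, 392, 417_3 and 517_3. Trim24COE tumors ranged from 0.03 to 1.49 TPM with a median of 0.19, and the metaplastic tumor 897 (1.49 TPM) and carcinoma 89 (1.22 TPM) were the only libraries above 1 TPM. The groups overlapped, the gene did not pass the filter on low values, and the exact permutation test of tumors against glands gave p = 0.586. The antisense gene Gm48140 inside Greb1 reached 0.12 TPM, and since the sources differ on whether the kit kept strand, reads of the pair may be mixed.

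**Figure D1:**
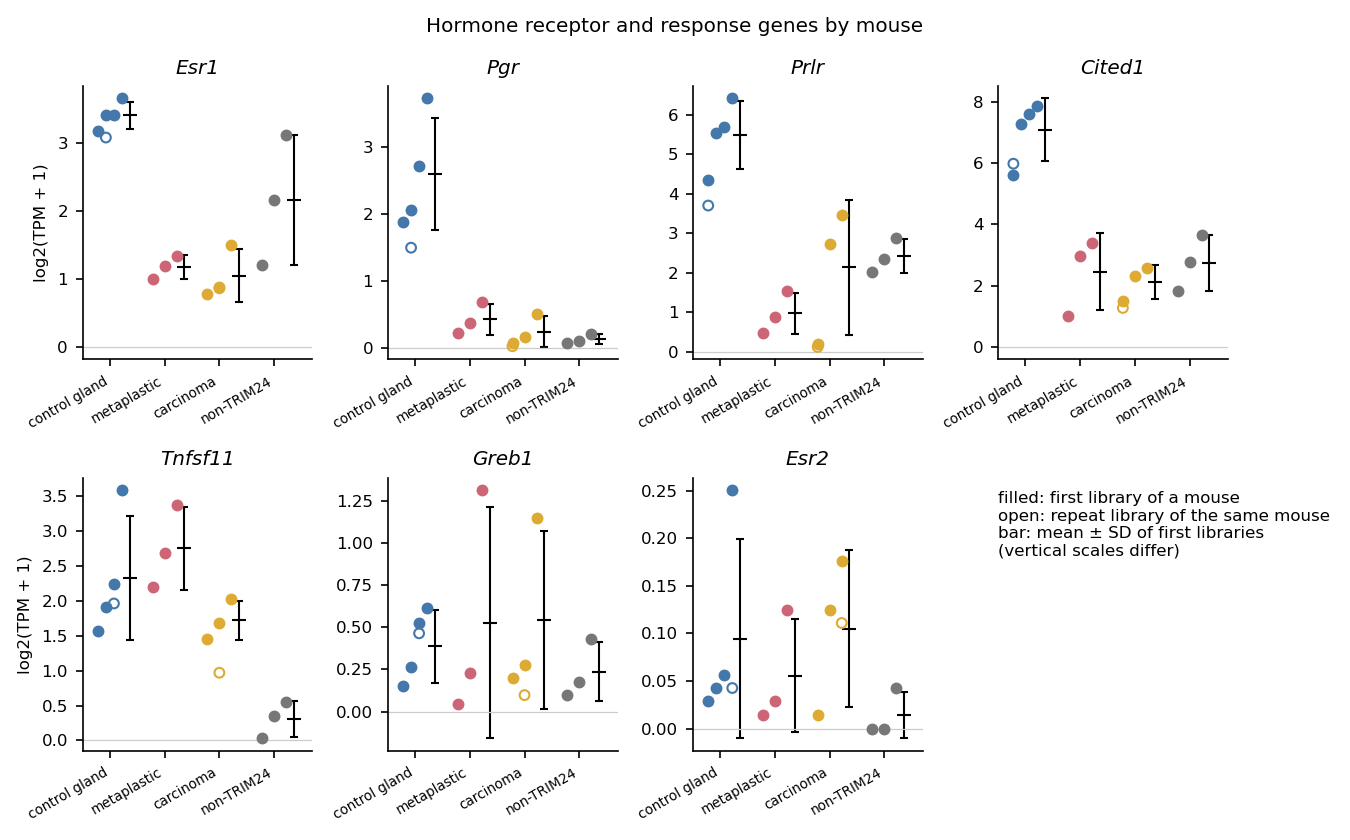
Level of each of the 7 genes by mouse, as log2(TPM + 1), in control glands (4 mice), metaplastic carcinosarcomas, Trim24COE carcinomas and non-TRIM24 tumors (3 mice each). Filled points are first libraries, open points repeat libraries, bars the mean ± SD of first libraries, and vertical scales differ. Esr1, Pgr, Prlr and Cited1 show every Trim24COE tumor below every gland, Tnfsf11 shows overlap with the non-TRIM24 tumors lowest, and Greb1 and Esr2 sit close to 0 throughout.

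By mean TPM, a scale that allows comparison between genes, the order in the glands was Cited1, Prlr, Esr1, Pgr, Tnfsf11, Greb1, Esr2. Neighbors in that order overlapped between mice except Prlr with Esr1 and Tnfsf11 with Greb1. In the Trim24COE tumors the order of the means became Cited1, Tnfsf11, Prlr, Esr1, Greb1, Pgr, Esr2, and there every pair of neighbors overlapped. Tnfsf11 thus moved from the fifth to the second place without its own mean changing beyond the spread (4.88 ± 4.18 TPM, n = 4, and 4.24 ± 2.83 TPM, n = 6). Pgr, the fourth in the glands, was the sixth in the tumors.

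Of the 5 genes tested, 4 fell in Trim24COE tumors and none rose, where 9.13% of the 15196 genes tested were called lower and 7.96% higher. The same 4 genes had every tumor below every gland, which held for 7.20% of the genes tested. Over all 5 tested genes the median log2 fold change was -2.30, beside -0.04 over all genes tested. An exact permutation test of the mean gave p = 0.00476 for each of the 4, two-sided, which is the smallest value that 6 tumors against 4 glands allow. As none of the 4 overlapped, this p largely restates that separation. Taken by class, the same glands served both comparisons, so the following values are set side by side and are not independent.

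Against the glands, the metaplastic carcinosarcomas had a mean of 1.28 ± 0.270 TPM for Esr1 (SD, n = 3), 7.63-fold lower, and the carcinomas had 1.13 ± 0.613 TPM (SD, n = 3), 8.65-fold lower. The estrogen receptor message was thus low in either class, with log2 fold changes of -2.23 (SE 0.26, limma adjusted p = 0.00180) and -2.36 (SE 0.31, limma adjusted p = 0.0151). Pgr was 16.5-fold lower in metaplastic tumors (log2 fold change -2.17, SE 0.45, limma adjusted p = 0.0136) and 30.2-fold lower in carcinomas (-2.36, SE 0.47, limma adjusted p = 0.0384). Cited1 was 27.3-fold lower in metaplastic tumors (-4.64, SE 0.70, limma adjusted p = 0.00417) and 44.0-fold lower in carcinomas (-4.96, SE 0.56, limma adjusted p = 0.00987). The class values were furthest apart for Prlr, which was 47.4-fold lower in metaplastic tumors (-4.52, SE 0.50, limma adjusted p = 0.00153) and 9.40-fold lower in carcinomas, where it was not called (-3.36, SE 0.80, 95% interval -5.20 to -1.52, limma adjusted p = 0.0618), although 3 of 16 alternatives called it. Tnfsf11 had log2 fold changes of 0.43 (SE 0.52, limma adjusted p = 0.592) in metaplastic tumors and -0.61 (SE 0.50, limma adjusted p = 0.538) in carcinomas.

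In all, 4 of 5 tested genes fell in metaplastic tumors, where 13.1% of 15287 genes were called lower and 9.83% higher, and 3 of 5 fell in carcinomas, where 1.92% of 15479 genes were called lower. For the 4 genes with non-overlapping values the exact permutation test gave p = 0.0286 in each class, the smallest that 3 tumors against 4 glands allow. This p, too, largely restates the lack of overlap. The calls by class rest on few mice. Without carcinoma 3956 the carcinoma count was 1, with adjusted p of 0.0562 for Esr1 and 0.123 for Pgr. Pgr also missed the threshold in carcinomas without 89 (0.0821), 273_5 (0.103), gland 417_3 (0.0562) or gland 517_3 (0.0943), and in metaplastic tumors without 64 (0.0702) or 897 (0.0511), all from limma. Its log2 fold change stayed between -2.59 and -1.80 whichever mouse was left out.

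**Figure D2:**
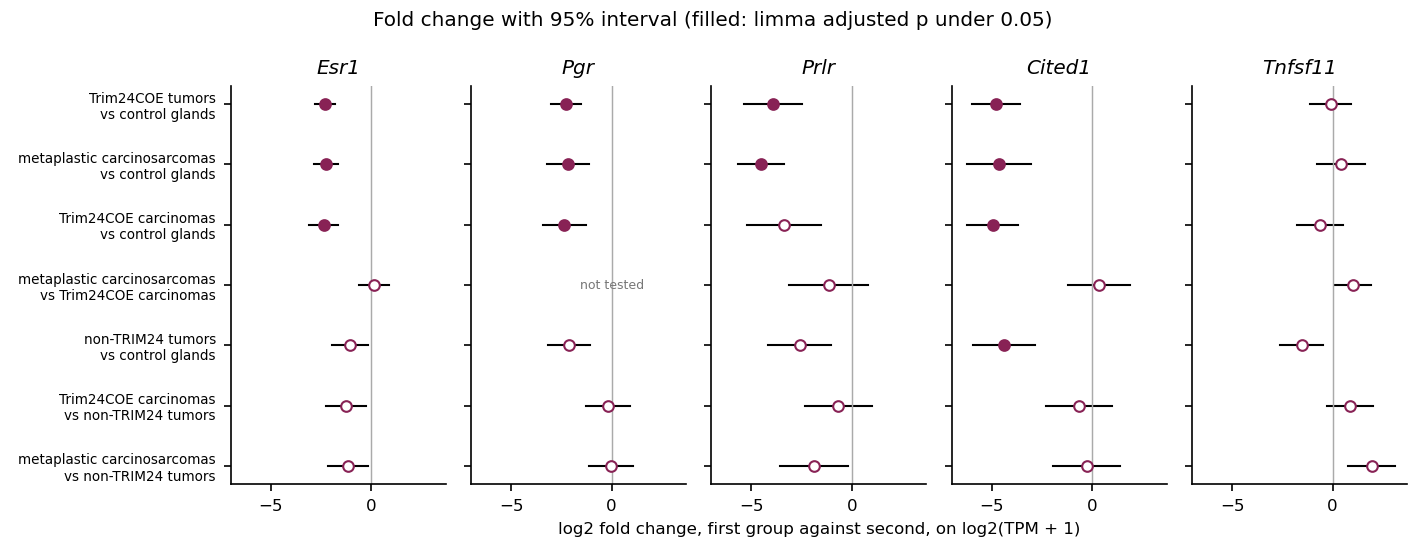
Log2 fold change on log2(TPM + 1) with its 95% interval for the 5 genes that passed the filter, in the 7 comparisons between groups. Filled points are limma adjusted p under 0.05. For Esr1, Pgr and Cited1 the Trim24COE comparisons with glands are filled and far to the left, from -2.17 to -4.96, while the intervals of Tnfsf11 against glands cross 0 for Trim24COE tumors.

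The comparison of metaplastic carcinosarcomas with carcinomas, which asks whether hormone genes differ between the tumor classes of the model, called none of the 4 genes tested, where 0.698% of 14193 genes were called in either direction. At an unadjusted p under 0.05, 1 of the 4 remained, Tnfsf11, where 15% of all genes did. Tnfsf11 was higher in all 3 metaplastic tumors (3.60 to 9.39 TPM) than in all 3 carcinomas (1.74 to 3.06 TPM), with a log2 fold change of 1.03 (SE 0.38, 95% interval 0.14 to 1.93, limma adjusted p = 0.283). The exact permutation test gave p = 0.1, the smallest that 3 against 3 allow, so that test cannot pass 0.05 here. Esr1 differed by 0.13 (95% interval -0.61 to 0.87), Cited1 by 0.33 (-1.21 to 1.86) and Prlr by -1.17 (-3.11 to 0.78) on the log2 scale. The interval for Esr1 does not reach the size of the gap to the glands, and those for Cited1 and Prlr are wide. Pgr was too low in either class to be tested.

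Tissue content moved with these groups. The 8 adipocyte markers summed to 1763 to 38048 TPM in glands and 121 to 1276 TPM in Trim24COE tumors, with 2 of the 8 markers called lower. All 4 macrophage markers were called higher in tumors (40.6 to 93.5 TPM summed in glands, 152 to 397 in tumors), all 4 lymphocyte markers were called lower (9.39 to 44.7 TPM summed in glands, 1.04 to 12.5 in tumors), 2 of 4 endothelial markers lower, 1 of 5 fibroblast markers higher, 1 of 6 basal epithelial markers lower, and none of the 7 luminal or 4 skeletal muscle markers was called. The luminal markers nonetheless had a median log2 fold change of -1.97, with 6 of 7 negative and 1 under an unadjusted p of 0.05, and no muscle marker passed unadjusted. By class, 5 of 7 luminal markers were called lower in metaplastic tumors (median log2 fold change -3.84), where 13.1% of all genes were. None was called in carcinomas (median 0.57), where 1.92% of all genes were called lower. Of the 6 basal markers, 3 were called lower in metaplastic tumors and 1 in carcinomas. The part of these changes in the receptor values was not tested. The measurements that bear on it are the following. Within the fat-poor glands 417_3 and 517_3 alone, the log2 fold changes against the 6 tumors were -2.30 for Esr1, -2.89 for Pgr, -4.42 for Prlr and -5.45 for Cited1 (limma adjusted p = 0.00148, 0.000581, 0.00920 and 0.000579). Against the fat-rich glands 133 and 392 alone they were -2.30, -1.64, -3.46 and -4.15 (limma adjusted p = 0.00160, 0.00310, 0.0256 and 0.00459). The 4 genes were lower in tumors than in either pair of glands. The fat-poor pair is not matched to the tumors, as its adipocyte markers summed to 1763 and 1953 TPM, above every Trim24COE tumor. These splits thus do not separate fat content from tumor status. With the mean level of the luminal markers as a term, the calls for all 6 tumors stayed at 4, but the metaplastic count fell to 1. There Esr1 kept its call (-2.10, SE 0.53, limma adjusted p = 0.0367), while Prlr was at -2.56 (0.0577), Cited1 at -2.06 (0.252) and Pgr at -0.34 (0.754). The luminal sums of the metaplastic tumors (298 to 1412 TPM) lay mostly under those of the glands (871 to 4759 TPM). In tumor 897, the highest of these, Krt8 (913.65 TPM) and Krt18 (463.32 TPM) made up most of the sum.

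Relative to the luminal keratins Krt8 and Krt18 of the same library, Pgr, Prlr and Cited1 were again lower in all tumors, and Esr1 was lower in the carcinomas. The geometric mean of Krt8 and Krt18 was 200.2, 336, 1167 and 1243 TPM in glands 133, 392, 417_3 and 517_3, and ranged from 120 to 2619 TPM in the 6 tumors. In metaplastic tumors against glands, Krt8 and Krt18 were not called, while the other 5 luminal markers, Krt19, Epcam, Cdh1, Cldn3 and Cldn7, were called lower. Tumor 897 held 913.65 TPM of Krt8 but 2.73 TPM of Epcam, which was at 153.36 to 660.87 TPM in glands. This scale therefore does not follow the other luminal markers, and scaling to those was not tested. Per 1000 TPM of keratin, Cited1 was 167 to 459 TPM in glands and 0.710 to 78.6 TPM in tumors (log2 difference -5.02, exact permutation p = 0.00952). Prlr was 36.6 to 149.6 TPM in glands and 0.0573 to 14 TPM in tumors (-4.85, exact permutation p = 0.0190), and Pgr was 4.51 to 15.9 and 0.0191 to 3.29 TPM (-4.38, exact permutation p = 0.0143). None of these 3 genes overlapped between tumors and glands on this scale. Esr1 did overlap, with 6.45 to 48.1 TPM per 1000 TPM of keratin in glands and 0.321 to 10.8 in tumors (-2.89, exact permutation p = 0.0476). Its gland values were split by fat content, at 48.1 and 28.8 in the fat-rich glands 133 and 392 and 9.97 and 6.45 in the fat-poor glands 417_3 and 517_3. Which cells carried the Esr1 message was not tested. The overlap came from the metaplastic tumors, in which Esr1 per keratin reached 10.8 and the difference of -1.74 did not pass (exact permutation p = 0.257), whereas the carcinomas lay entirely below the glands (-4.04, exact permutation p = 0.0286). Tnfsf11 per keratin differed by 0.09 (exact permutation p = 0.924), and Esr2, near 0 throughout, by -0.17 (exact permutation p = 0.9). These permutation tests are two-sided.

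**Figure D3:**
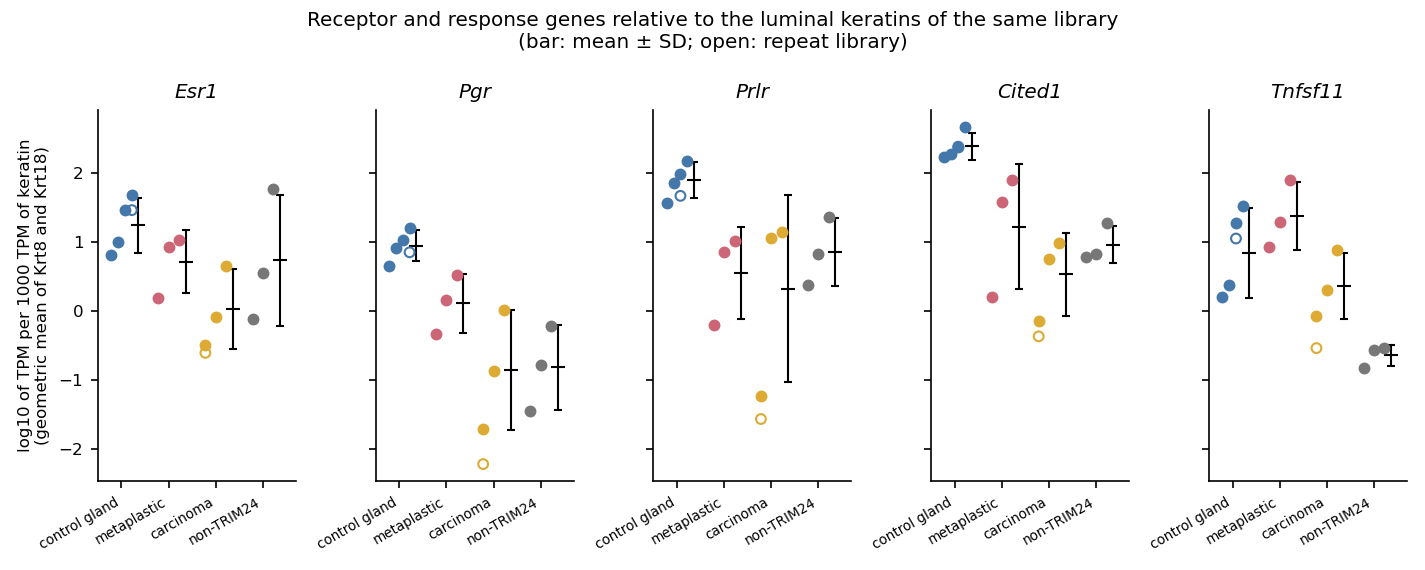
TPM of Esr1, Pgr, Prlr, Cited1 and Tnfsf11 per 1000 TPM of luminal keratin (geometric mean of Krt8 and Krt18), on a log10 axis, by mouse and group. Bars are mean ± SD of first libraries and open points are repeat libraries. Trim24COE tumors stay below the glands for Pgr, Prlr and Cited1, and the metaplastic tumors reach into the gland range for Esr1 (up to 10.8 against a lowest gland of 6.45). The other 5 luminal markers were called lower in metaplastic tumors than in glands, while these keratins were not.

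The wider pathway was followed with 66 genes in 6 lists, each counted in the same fit of Trim24COE tumors against glands. Among 8 other steroid and orphan receptors, 7 were tested, 3 fell and none rose, with a median log2 fold change of -0.72. Over all genes tested 9.13% fell and 7.96% rose, and the counts of this and the next 3 lists stand beside those shares. Those that fell were Esrrg, an estrogen-related orphan receptor (3.63 ± 2.97 TPM in 4 glands and 0.130 ± 0.152 TPM in 6 tumors, log2 fold change -1.82), the mineralocorticoid receptor gene Nr3c2 (-2.12) and the glucocorticoid receptor gene Nr3c1 (-0.91), with limma adjusted p of 0.00688, 0.00715 and 0.0191. All 3 had every tumor below every gland, as 7.20% of all genes did. Of these 3 the fall was smallest for the glucocorticoid receptor, which stayed at 19.1 ± 3.54 TPM in tumors (n = 6) against 36.8 ± 7.51 TPM in glands (n = 4).

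Of 15 estrogen receptor cofactors, all were tested, 3 fell and none rose, with a median log2 fold change of -0.55. The pioneer factor gene Foxa1, whose product opens chromatin for the estrogen receptor, was at 12.65, 20.53, 44.34 and 35.24 TPM in glands 133, 392, 417_3 and 517_3. In metaplastic tumors 64, 567 and 897 it was at 0.61, 1.65 and 0.20 TPM, and in carcinomas 89, 273_5 and 3956 at 0.87, 4.71 and 1.28 TPM. Foxa1 thus fell in every tumor, with no overlap (log2 fold change -3.56, SE 0.46, limma adjusted p = 0.000970), and did so relative to keratin too (-4.45, exact permutation p = 0.00476, the smallest possible). Per keratin, Gata3 (-3.06, exact permutation p = 0.0333), Stat5a (-2.50, p = 0.0286) and Elf5 (-4.41, p = 0.0381) were lower too but overlapped with the glands. By class on that scale, the exact permutation p was 0.0857 for Stat5a in metaplastic tumors and 0.0571 for Gata3 and 0.0857 for Elf5 in carcinomas. The luminal regulator gene Gata3 fell from 73.6 ± 29.1 TPM (n = 4) to 10.4 ± 10.8 TPM (n = 6, log2 fold change -3.04, SE 0.55, limma adjusted p = 0.00486), and the coactivator gene Ncoa1 fell by 1.60 on the log2 scale (SE 0.38, limma adjusted p = 0.0167). The other cofactors, Trim24 among them, did not pass.

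Of 17 other estrogen and progesterone target genes, 13 were tested, 3 fell and 1 rose, with a median log2 fold change of -0.96. The gene for the helix-loop-helix factor Id4 fell from 25.3 ± 19.6 TPM (n = 4) to 0.833 ± 0.672 TPM (n = 6, log2 fold change -3.54, limma adjusted p = 0.00162), and the secreted glycoprotein gene Stc2 from 27.7 ± 11.2 to 3.31 ± 1.85 TPM (-2.79, limma adjusted p = 0.00165). Wnt4, the second paracrine progesterone signal, fell by 2.18 on the log2 scale (SE 0.64, limma adjusted p = 0.0398), with overlap because carcinoma 89 held 13.97 TPM against 5.47 TPM in gland 133. Areg, the amphiregulin gene, went the other way. It was at 14.93, 14.31, 22.17 and 23.22 TPM in glands 133, 392, 417_3 and 517_3, and at 23.16, 48.73 and 45.95 TPM in metaplastic tumors 64, 567 and 897 and 104.50, 30.13 and 116.33 TPM in carcinomas 89, 273_5 and 3956. Only tumor 64 touched the gland range, and Areg rose by a log2 fold change of 1.46 (SE 0.44, limma adjusted p = 0.0428).

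**Figure D4:**
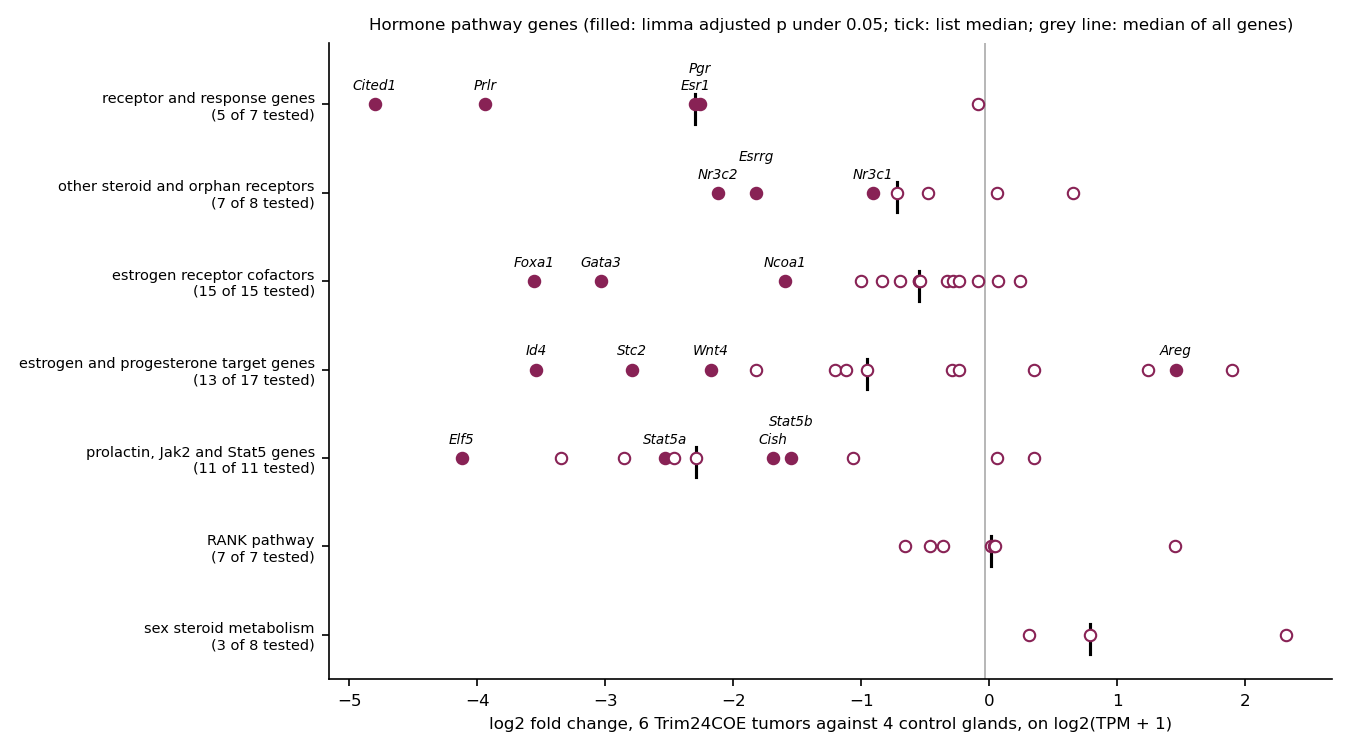
Log2 fold change of 6 Trim24COE tumors against 4 control glands on log2(TPM + 1) for the tested genes of the 7 hormone genes and the 6 pathway lists. Filled points passed limma adjusted p under 0.05 and are named, ticks are list medians and the grey line is the median of all genes (-0.04). Named genes sit left of 0, down to -4.80 for Cited1, except Areg at 1.46.

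All 11 genes of the prolactin, Jak2 and Stat5 list were tested, 4 fell and none rose, with a median log2 fold change of -2.29. Stat5a, the main Stat5 gene of the mammary gland, was at 50.57, 26.40, 81.52 and 55.94 TPM in glands 133, 392, 417_3 and 517_3. It was at 4.18, 8.54 and 5.81 TPM in metaplastic tumors 64, 567 and 897 and at 16.47, 11.17 and 5.29 TPM in carcinomas 89, 273_5 and 3956, so that no tumor reached the lowest gland (log2 fold change -2.54, SE 0.40, limma adjusted p = 0.00227). Stat5b fell by 1.55 on the log2 scale (SE 0.32, limma adjusted p = 0.00903), and Cish, a Stat5-induced inhibitor gene, by 1.69 (SE 0.49, limma adjusted p = 0.0361).

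Elf5, the alveolar regulator gene, fell as well (-4.12, SE 1.17, limma adjusted p = 0.0336), but its values followed the same split as Prlr within the carcinomas. Carcinomas 89 and 273_5 held 88.07 and 79.26 TPM, inside the gland range of 61.28 to 303.94 TPM, while carcinoma 3956 held 2.34 TPM and the metaplastic tumors 0.80 to 4.89 TPM. The milk protein genes in this list were not called in tumors against glands. The casein gene Csn2 was at 30.33 to 4111.89 TPM in glands and 8.09 to 1415.47 TPM in tumors (log2 fold change -3.35, SE 1.62, limma adjusted p = 0.176). Csn3, chosen for mention after its values were seen, was lower in metaplastic tumors than in glands (10.76 to 68.99 against 435.45 to 1183.31 TPM, log2 fold change -5.15, SE 0.65, limma adjusted p = 0.00221). Carcinomas 89 and 273_5 held 2228.24 and 4071.85 TPM of Csn3, above every gland, and carcinoma 3956 held 85.84 TPM.

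**Figure D5:**
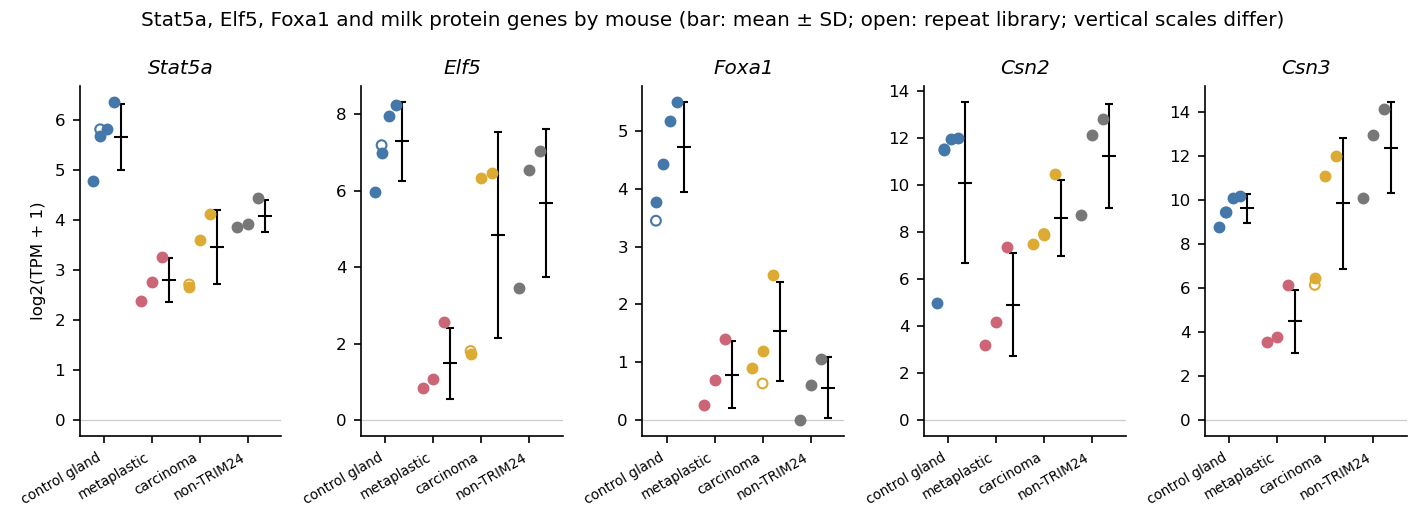
Level of Stat5a, Elf5, Foxa1 and the casein genes Csn2 and Csn3 by mouse and group, as log2(TPM + 1), with bars for mean ± SD of first libraries and open points for repeat libraries. Stat5a and Foxa1 are below every gland in all Trim24COE tumors, while Elf5 and Csn3 split the carcinomas, with 3956 (2.34 and 85.84 TPM) next to the metaplastic tumors.

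None of the 7 RANK pathway genes was called, and none passed at an unadjusted p under 0.05, where 32.6% of all genes tested did. Their median log2 fold change was 0.01. Tnfrsf11a, the RANK receptor gene and partner of Tnfsf11, was at 3.56 to 14.57 TPM in glands and 4.19 to 7.78 TPM in tumors (-0.36, SE 0.35, limma adjusted p = 0.511). Of 8 sex steroid metabolism genes, 7 were found by symbol, 3 were tested, none was called and 1 passed unadjusted, with a median log2 fold change of 0.79. That one was the progesterone-inactivating enzyme gene Akr1c18, named here after its values were seen, which was at 0.11 to 5.97 TPM in glands and 0.69 to 21.33 TPM in tumors (log2 fold change 2.32, SE 0.73, limma adjusted p = 0.0513).

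By class, the lists gave more calls in the metaplastic carcinosarcomas, as did all genes (13.1% lower and 9.83% higher, against 1.92% lower in carcinomas). In the metaplastic tumors 3 of 8 other receptors, 4 of 15 cofactors, 5 of 13 target genes and 5 of 11 prolactin pathway genes fell, and 2 target genes and 1 steroid metabolism gene rose. The genes that rose, named because they are few, were Igfbp4 (log2 fold change 2.50, limma adjusted p = 0.0430), Susd3 (1.86, limma adjusted p = 0.0210) and Akr1c18 (2.73, limma adjusted p = 0.0224). In the carcinomas 1 of 7, 1 of 15, 2 of 13 and 1 of 11 fell, namely Pgrmc1, Foxa1, Id4 with Stc2, and Stat5a, and none rose. The comparison of the classes themselves called no gene of these lists, and at an unadjusted p under 0.05 it gave 1 of 5 other receptors, 4 of 15 cofactors, 2 of 11 target genes, 5 of 11 prolactin pathway genes, 1 of 7 RANK pathway genes and 1 of 3 steroid metabolism genes, beside 15% of all genes.

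The non-TRIM24 tumors show what was low in mammary tumors of another origin, within the limit that they were sequenced apart. These comparisons used all 15 libraries with a batch term, which rests on the repeats of gland 133 and carcinoma 3956. Relative to the first library, the repeat of gland 133 gave 0.777 times the Esr1 TPM, 0.575 times the Pgr, 0.620 times the Prlr and 1.3 times the Cited1. The repeat of carcinoma 3956 gave 0.976, 0.4, 0.6 and 0.763 times the first values. For these 4 genes the repeats differed by less than Trim24COE tumors did from glands on average. This did not hold for every non-TRIM24 tumor, as Esr1 in the repeat of gland 133 (7.48 TPM) lay below tumor FVB001 (7.67 TPM).

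Against the glands, 1 of 5 tested genes fell in non-TRIM24 tumors, where 0.507% of 16775 genes were called lower. That gene was Cited1, at 6.65 ± 4.62 TPM (SD, n = 3), 23.7-fold lower (log2 fold change -4.40, SE 0.72, 95% interval -5.95 to -2.85, limma adjusted p = 0.0129). Without tumor FVB002 it was not called (limma adjusted p = 0.0709) at a log2 fold change of -4.41. All 5 genes had every non-TRIM24 tumor below every first gland library, but 23.9% of all genes tested did so too. Prlr was at 4.51 ± 1.68 TPM, 11.1-fold lower (-2.61, SE 0.73, limma adjusted p = 0.110), and Pgr at 0.1 ± 0.0529 TPM, 59.5-fold lower (-2.11, SE 0.48, limma adjusted p = 0.0672). Without gland 133 the count was 3, since Pgr (0.0113) and Prlr (0.0425) then passed in limma. Esr1 was at 4.15 ± 3.24 TPM, 2.35-fold lower (-1.06, SE 0.43, 95% interval -1.98 to -0.14, limma adjusted p = 0.207). That mean joins unlike tissues. Adipocyte markers summed to 179 TPM in tumor 219 and 54243 TPM in FVB001, and luminal markers to 5223 and 539 TPM. Per 1000 TPM of keratin, Esr1 was 0.753, 57.4 and 3.59 TPM in 219, FVB001 and FVB002, against 6.45 to 48.1 TPM in first gland libraries. Tnfsf11 was at 0.253 ± 0.221 TPM, 19.2-fold lower (-1.55, SE 0.50, 95% interval -2.63 to -0.46, limma adjusted p = 0.145). Within the second batch alone, the repeat of gland 133 lay above all 3 non-TRIM24 tumors for Prlr (12.04 TPM against 3.07 to 6.36), Pgr (1.83 against 0.06 to 0.16), Cited1 (62.23 against 2.51 to 11.64) and Tnfsf11 (2.90 against 0.02 to 0.46), and for Esr1 lay inside their range (7.48 against 1.3 to 7.67). A single gland allows no test there.

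Set against the non-TRIM24 tumors, neither Trim24COE class had a gene of the 5 called. For carcinomas the share of all 16775 genes called in either direction was 0.0298%, and 1 of 5 genes, Esr1, passed at an unadjusted p under 0.05, where 17.6% of all genes did (log2 fold change -1.26, SE 0.45, 95% interval -2.23 to -0.28, limma adjusted p = 0.211). For metaplastic carcinosarcomas 4.76% of all genes were called, and 3 of 5 genes, Prlr, Esr1 and Tnfsf11, passed unadjusted, where 24.4% of all genes did. Tnfsf11 was higher in metaplastic tumors than in non-TRIM24 tumors by 1.94 on the log2 scale (SE 0.54, 95% interval 0.78 to 3.11, limma adjusted p = 0.0577), with means of 6.13 ± 2.96 and 0.253 ± 0.221 TPM (SD, n = 3 each) and no overlap. Prlr was lower by -1.88 (95% interval -3.58 to -0.19, limma adjusted p = 0.162) and Esr1 by -1.15 (SE 0.46, limma adjusted p = 0.144). Cited1 differed by -0.27 (SE 0.77). Pgr differed by -0.03 (SE 0.51), against the direction of the means (0.36 and 0.1 TPM), and the value was 0.54 with a pseudocount of 0.1 and 0.29 with no batch term. Among the pathway lists, Foxa1 alone fell in non-TRIM24 tumors against glands (0.00 to 1.07 TPM, log2 fold change -3.71, SE 0.52, limma adjusted p = 0.00956). No gene of the prolactin list was called between these tumors and the glands, and 5 of the 11 passed at an unadjusted p under 0.05, where 19.3% of all genes did. Csn3 was at 18054.9 TPM in 219, 1095.97 in FVB001 and 7885.77 in FVB002, the FVB001 value being inside the gland range, and metaplastic carcinosarcomas lay under all 3 for Csn3 (-8.15, SE 1.34, limma adjusted p = 0.0108) and for the lactalbumin gene Lalba (-6.28, SE 1.56, limma adjusted p = 0.0386).

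Across the 10 mice of the first batch, the 4 genes that fell followed one another, with Pearson correlations of log2(TPM + 1) between 0.875 and 0.938, while Tnfsf11 had correlations of -0.10 to 0.12 with them. These points hold the gap between tumors and glands and share libraries, so they describe the pattern only. The genes most like Esr1 were Rimklb (0.994), Agtr1a (0.992) and Heph (0.991), of which Agtr1a was at 21.77 to 36.83 TPM in glands and 0.42 to 2.96 TPM in tumors. Those most like Pgr were Plce1 (0.985), Spock2 (0.982) and Prkaa2 (0.981), and those most like Prlr were Mlph (0.983), Hdac11 (0.983) and Chrm1 (0.981). Cited1 was followed most closely by Lifr (0.984), Tmem56 (0.981) and Bik (0.977). Tnfsf11 was followed by Nkap (0.962), Rcan2 (0.932) and Dnah14 (0.929), and for all 3 of these tumors and glands overlapped, as for Tnfsf11.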

How the data were processed

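Total RNA from 15 libraries (13 mice) was measured as TPM (transcript abundance scaled by length and library) per gene in 2 deposited tables, 1 per batch, joined by gene ID. According to the methods of the study the authors aligned reads with STAR to GRCm38 and quantified GENCODE genes with RSEM. The submitters' processing notes name TopHat, Cufflinks, RSEM, FastQC, DESeq, edgeR and mm10 without versions, and the sources differ on the library kit, so strand handling is unsettled. TPM carries no depth. No count test was possible on TPM. Values were tested as log2(TPM + 1) in limma 3.58.1 (R 4.3.3, empirical Bayes with a trend), for genes that reached 1 TPM in a number of libraries equal to the mice of the smaller group, with Benjamini-Hochberg adjustment over all tested genes and a threshold of 0.05. Comparisons within the first batch used the 2 groups alone. Where non-TRIM24 tumors entered, the fit took every library, with batch as a term and the mouse as a correlated block (consensus correlation 0.951). Repeat libraries were otherwise left out of means and tests. Exact permutation tests over mice were two-sided (Python 3.11.15). Promoter windows came from RefSeq and gene positions from GENCODE, both on GRCm38. The fit was tested on simulated data. The 7 genes, the 6 pathway lists and the 8 marker lists were chosen with earlier results of these data known, so they are not independent evidence. Named genes were all 7 genes, of each pathway list up to 4 called genes per direction with the smallest p in tumors against glands, and the 3 genes best correlated with each tested gene. Csn2, Csn3, Lalba, Akr1c18, Igfbp4, Susd3, Pgrmc1, Tnfrsf11a, Adipoq and the genes overlapping the 7 were named after their values were seen. 1 gene of these lists is not reported here and was left out of their counts.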

Additional observations from a re-analysis of the deposited data

Results flagged for a closer look

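Esr2 in control gland 133 stood apart from the other 3 glands at 0.19 TPM, against 0.02 to 0.04 TPM, by Dixon's criterion for 4 samples. The repeat library of the same gland gave 0.03 TPM. In all, 14 groups of values were examined in this way, and chance marks about 1 in 20. The pseudogene Gm7862 inside Esr2 was present in these libraries at up to 26.63 TPM in glands, and its part in the value was not tested.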

How the results depend on the processing

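The count of 4 lower genes in Trim24COE tumors against glands was the same in 19 alternatives, and Esr1, Pgr, Prlr and Cited1 each kept direction and call in 20, with log2 fold changes of -2.97 to -2.22, -4.38 to -1.64, -4.85 to -3.36 and -5.45 to -4.15. Their p-values, limma's adjusted or, per keratin, from the exact permutation test, were 0.000199 to 0.0476, 0.000581 to 0.0143, 0.00131 to 0.0312 and 0.000252 to 0.00952. By class, limma's adjusted p of the 4 in the same order spanned 0.000997 to 0.0367, 0.00220 to 0.754, 0.000588 to 0.0577 and 0.00209 to 0.252 for metaplastic tumors and 0.00279 to 0.0575, 0.00998 to 0.162, 0.0259 to 0.185 and 0.00329 to 0.0393 for carcinomas. Alternatives that left out pairs of glands or tumors FVB001 and FVB002, or scaled to keratin, were chosen after seeing the data. Leaving out 1 mouse gave counts of 4 to 4 there, 3 to 4 for metaplastic tumors, 1 to 3 for carcinomas, 0 to 3 for non-TRIM24 tumors against glands and 0 to 1 for metaplastic against non-TRIM24 tumors. Metaplastic tumors against glands gave 1 with the luminal term. Carcinomas against glands gave 1 without the filter and 4 with median-ratio rescaling, the luminal term or all 10 mice in 1 fit, where Prlr was called too (limma adjusted p = 0.0492, 0.0385 and 0.0259). Non-TRIM24 tumors against glands gave 2 with a pseudocount of 0.1 or an adipocyte term, 0 without the filter, with repeats as separate libraries or without FVB001 and FVB002, 3 with no batch term and 4 with the 13 first libraries. Metaplastic against non-TRIM24 tumors gave 1 with a pseudocount of 0.1, the luminal term, no batch term or the 13 first libraries (Tnfsf11, or Esr1 with the luminal term), and 1 without tumor 219.

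Values with an uncertain sign reversed in some settings, and the cause was not tested. Tnfsf11 in tumors against glands was 0.28 with the adipocyte term, 0.50 without glands 133 and 392, 0.090 per keratin and -0.34 to 0.33 leaving out 1 mouse. In metaplastic tumors against glands it was -1.35 with the luminal term and -0.16 without glands 417_3 and 517_3. Between the Trim24COE classes Prlr was 0.20 with the adipocyte term, Tnfsf11 -0.91 with the luminal term, Cited1 -0.13 to 1.05 and Esr1 -0.010 to 0.35 leaving out 1 mouse. For Pgr, carcinomas against non-TRIM24 tumors gave 0.10 with no batch term and 0.11 with the 13 first libraries, and metaplastic against non-TRIM24 tumors gave 0.54 with a pseudocount of 0.1, 0.66 with the luminal term, 0.29 with no batch term, 0.29 with the 13 first libraries and -0.15 to 0.076 leaving out 1 mouse. Cited1 in the last comparison was 1.48 with the luminal term and -0.74 to 0.45 leaving out 1 mouse. Median-ratio rescaling moved the median of all genes from -0.27 to -0.03 for non-TRIM24 tumors against glands, from 0.27 to -0.04 for carcinomas and from 0.13 to -0.09 for metaplastic tumors against non-TRIM24 tumors, and turned the split of calls in the last from 255 lower and 544 higher to 558 and 443. No paired analysis was possible because mice of different groups share no replicate numbers.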
